A study of Mus musculus with 12 samples.

Results

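Read density was examined over 5 imprinted genes of mouse chromosome 2, Gnas, Nespas, Nnat, Mcts2 and Sfmbt2, in libraries of immunoprecipitated chromatin from mouse embryonic stem cells, made to map GZF1, a DNA-binding protein of the BTB zinc-finger family. The genes were chosen by name, with earlier results of these data known. The 1 kb bins of the deposited matrix that overlap each gene with 5 kb on each side were taken as its window. The windows held 336 of the 2725549 bins of the matrix, counting each bin once. Gnas took 73 bins, Nespas 25, of which 22 lie in the Gnas window too, Nnat 13, Mcts2 11 and Sfmbt2 236. On mm10 the genes span chr2:174284320-174346744 (Gnas), chr2:174281237-174295436 (Nespas), chr2:157560078-157562525 (Nnat), chr2:152687148-152687946 (Mcts2) and chr2:10370440-10595253 (Sfmbt2). Chromatin was fixed with formaldehyde and cut with micrococcal nuclease before immunoprecipitation.

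The 8 libraries used here, of 12 in the series, stand alone in their groups. Anti-FLAG libraries came from 2 single clones that ectopically overexpress Gzf1-Flag, clone 35 in the Cas9-GFP line (Cas9 below) and clone 56 in RGM, a 129xCAST hybrid line. Anti-GZF1 libraries came from Cas9 and RGM wild-type cells, from Cas9 cells with a Gzf1 knockout and from a Cas9 control. An H3K27ac library and an input of the Cas9 line complete the set, and the input also served for RGM. Anti-FLAG libraries of cells without Gzf1-Flag were not analysed here, so no anti-FLAG value has a no-tag counterpart. With 1 library per group there is no replicate spread and no p-value, and every interval below is a 95% interval of counting error alone.

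Imprinted genes are expressed mainly from the allele of 1 parent, under marks of DNA methylation laid down in the germ line. Gnas encodes the alpha subunit of the stimulatory G protein and has several alternative first exons, not all of which are named here. The upstream Nesp promoter is active on the maternal allele, the exon 1A promoter on the paternal allele, and the downstream Gs-alpha promoter on both alleles in most tissues. The Gnasxl start of the locus has no entry in the promoter annotation used here, so no bin was named for it. Nespas is a noncoding RNA transcribed from the paternal allele, antisense to Nesp. Nnat, which encodes the membrane proteolipid neuronatin, lies within its host gene Blcap, and Mcts2, an intronless retrogene, lies within H13. Both are transcribed from the paternal allele. Sfmbt2 encodes a Polycomb group protein, is imprinted in extraembryonic lineages and carries a large microRNA cluster in an intron. Reads were not split by allele, so a density below is that of both alleles together.

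The promoters whose signal is compared below are shown because they differ in 2 properties, the number of CpG dinucleotides and 2 short motifs. The CpG count is set against the signal below, and the motifs were counted but not set against it. The promoter sequences come from RefSeq (GRCm38.p6), 250 bases before to 50 bases after an annotated start, plus strand, 5′ to 3′. Capitals mark TGCGCG, the first letters of the site reported for human GZF1, and TGCCGC, the site of the imprint-maintaining zinc-finger protein ZFP57, both searched on both strands (CGCGCA and GCGGCA in the printed strand). No match of one overlapped a match of the other.
Nesp (chr2:174284070-174284369): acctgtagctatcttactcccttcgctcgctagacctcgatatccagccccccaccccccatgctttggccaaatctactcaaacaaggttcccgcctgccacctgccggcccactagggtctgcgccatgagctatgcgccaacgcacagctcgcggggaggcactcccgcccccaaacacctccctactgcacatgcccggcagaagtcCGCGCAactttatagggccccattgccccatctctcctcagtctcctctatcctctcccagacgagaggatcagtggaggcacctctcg
Exon 1A (chr2:174327499-174327798): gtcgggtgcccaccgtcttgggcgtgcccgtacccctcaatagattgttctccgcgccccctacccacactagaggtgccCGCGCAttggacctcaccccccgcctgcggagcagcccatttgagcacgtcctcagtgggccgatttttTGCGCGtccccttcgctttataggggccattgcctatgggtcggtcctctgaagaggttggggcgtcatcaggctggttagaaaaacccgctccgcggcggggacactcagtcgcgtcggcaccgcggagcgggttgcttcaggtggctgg
Gs-alpha (chr2:174329756-174330055): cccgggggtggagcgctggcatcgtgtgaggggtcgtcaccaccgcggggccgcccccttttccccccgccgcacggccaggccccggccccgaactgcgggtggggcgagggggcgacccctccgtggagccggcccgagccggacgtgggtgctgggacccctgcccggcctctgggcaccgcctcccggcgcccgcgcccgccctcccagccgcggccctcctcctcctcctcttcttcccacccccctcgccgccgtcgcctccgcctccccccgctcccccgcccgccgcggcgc
Nnat (chr2:157559828-157560127): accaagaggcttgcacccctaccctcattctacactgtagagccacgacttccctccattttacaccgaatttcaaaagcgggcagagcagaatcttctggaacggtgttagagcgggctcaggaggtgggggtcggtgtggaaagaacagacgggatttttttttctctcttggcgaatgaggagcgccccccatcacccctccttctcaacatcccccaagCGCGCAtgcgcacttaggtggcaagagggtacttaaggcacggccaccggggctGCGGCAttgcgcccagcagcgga
Mcts2 (chr2:152686898-152687197): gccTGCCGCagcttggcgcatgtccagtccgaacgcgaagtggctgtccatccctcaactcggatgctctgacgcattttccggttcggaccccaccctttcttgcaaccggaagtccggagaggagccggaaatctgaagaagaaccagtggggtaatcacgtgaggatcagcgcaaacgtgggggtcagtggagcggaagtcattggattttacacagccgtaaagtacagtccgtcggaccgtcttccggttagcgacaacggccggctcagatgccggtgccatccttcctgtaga
The CpG counts were 16 for Nesp, 27 for exon 1A (28 from a second annotated start just downstream), 40 for Gs-alpha, 17 for Nnat and 25 for Mcts2, against a median of 7 over 32851 promoters of the table. TGCGCG occurred at 2 places in exon 1A, at 1 place each in Nesp and Nnat, and in none of the Gs-alpha, Mcts2 and Sfmbt2 sequences; 12.56% of all promoters hold it. TGCCGC occurred once each in Nnat and Mcts2 and in 11.61% of all promoters. The 2 annotated Sfmbt2 promoters had 9 and 16 CpG dinucleotides.

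Depth ran from 10.1 M reads (Cas9 input) to 94.2 M (Cas9 control, anti-GZF1), so that a density of 1, the library's autosomal mean, stood for 3.93 to 35.8 reads per bin. In the input 0 reads in a bin still allow a density of up to 0.764. At the starts of 8 of 10 embryonic stem cell marker genes that could be measured the median H3K27ac value over local background was 0.59 on the log2 scale, against 0.17 in the input; at 4 of 8 fibroblast genes it was 0.21, against −0.37 in the input. The Cas9 knockout and Cas9 control libraries stood apart from the other 6: at 26238 promoter bins 1.23% and 1.16% were raised over local background, as defined below, in them. The others had 6.33% and 18.7% with anti-FLAG (5.35% in both), 19.6% and 34% in wild-type anti-GZF1 (18.6% in both), 16.1% in H3K27ac and 16.6% in the input. These shares cannot rank promoter signal, because libraries also differ in how many bins of any kind pass. Of all autosomal bins, 7.06% were raised in the input, against 0.0428% for the knockout and 0.0367% for the control. The standard deviation of the log2 value was 0.73, 0.25 and 0.24 in the same order. The median log2 value of the promoter bins, 0.18 for knockout and control alike, was 0.30 to 0.57 in the other 6. Ratios to the knockout or control library are therefore given beside the ratio of the surrounding 1 Mb.

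Few bins of the 5 windows stood above their surroundings, and in the immunoprecipitations those that did lay mostly in Gnas. A bin was called raised where log2((density + 0.5)/(local background + 0.5)) was 1 or more, the local background being the median of the 10 bins on each side. The filter on low density kept 295 member bins, and the 41 it left out were all in Sfmbt2. In the anti-FLAG libraries 2 member bins were raised in Cas9 (0.678%, against 0.174% of all autosomal bins) and 4 in RGM (1.36% against 0.459%). In both, 1 was raised (0.339% against 0.12%). In wild-type anti-GZF1 the counts were 5 in Cas9 (1.695% against 0.444%) and 12 in RGM (4.07% against 2.22%), with 4 raised in both (1.36% against 0.38%). The knockout and the control had 0 raised bins each (0.0428% and 0.0367% of all autosomal bins). H3K27ac had 3 (1.02% against 0.466%) and the input 22 (7.46% against 7.06%). These differences in share were not tested. Of those 22 input bins 20 lay in Sfmbt2 and 2 in Mcts2, and none in Gnas. Gnas held 1 of 2 and 4 of 4 raised bins with anti-FLAG, 3 of 5 and 8 of 12 in wild-type anti-GZF1, in Cas9 and RGM, and 2 of 3 in H3K27ac.

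The clearest signal was a 4 kb stretch of Gnas from the exon 1A start to the Gs-alpha start (chr2:174327001-174331000), high in every library but the knockout and the control. Its density was 2.89 (2.58 to 3.22) in Cas9 anti-FLAG, 4.18 (3.80 to 4.59) in RGM anti-FLAG, 3.99 (3.60 to 4.42) in Cas9 wild-type anti-GZF1 and 5.75 (4.98 to 6.61) in RGM wild-type anti-GZF1. The knockout had 1.17 (0.993 to 1.37) and the control 1.04 (0.882 to 1.22), while H3K27ac had 3.18 (2.76 to 3.65) and the input 2.55 (1.82 to 3.47). RGM wild type thus stood highest with no overlap of its interval, RGM anti-FLAG and Cas9 wild type overlapped each other, H3K27ac overlapped Cas9 anti-FLAG, the input and, narrowly, Cas9 wild type, and the knockout and control came last and overlapped.

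Much of this height was present in the input. Against the median of the bins on each side the stretch was 2.40-fold up in Cas9 anti-FLAG, 3.39-fold in RGM anti-FLAG, 2.72-fold in Cas9 wild type, 4.95-fold in RGM wild type and 2.30-fold in H3K27ac, and the input itself was 2.24-fold up (1.60 to 3.04). The ratio to input was 1.13 (0.814 to 1.62) for Cas9 anti-FLAG and 1.64 (1.19 to 2.33) for RGM anti-FLAG. For wild-type anti-GZF1 it was 1.57 (1.13 to 2.23) in Cas9 and 2.26 (1.60 to 3.26) in RGM, and for H3K27ac 1.25 (0.886 to 1.80). RGM anti-FLAG and both wild types, 3 of these 5 ratios, had intervals above 1, and the Cas9 anti-FLAG and H3K27ac intervals held 1. RGM exceeded Cas9 with both antibodies, by 1.45 (1.25 to 1.68) for anti-FLAG and 1.44 (1.21 to 1.71) for wild-type anti-GZF1, where the surrounding 1 Mb had 1.03 and 0.945. The RGM libraries also stood higher at CpG-rich promoters in general. At 2858 promoter bins with 31 or more CpG dinucleotides the median log2 over local background was 1.13 in RGM and 0.78 in Cas9 with anti-FLAG. In wild type it was 1.76 in RGM and 1.15 in Cas9. The part of this in the ratios of the stretch was not tested.

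**Figure D1:**
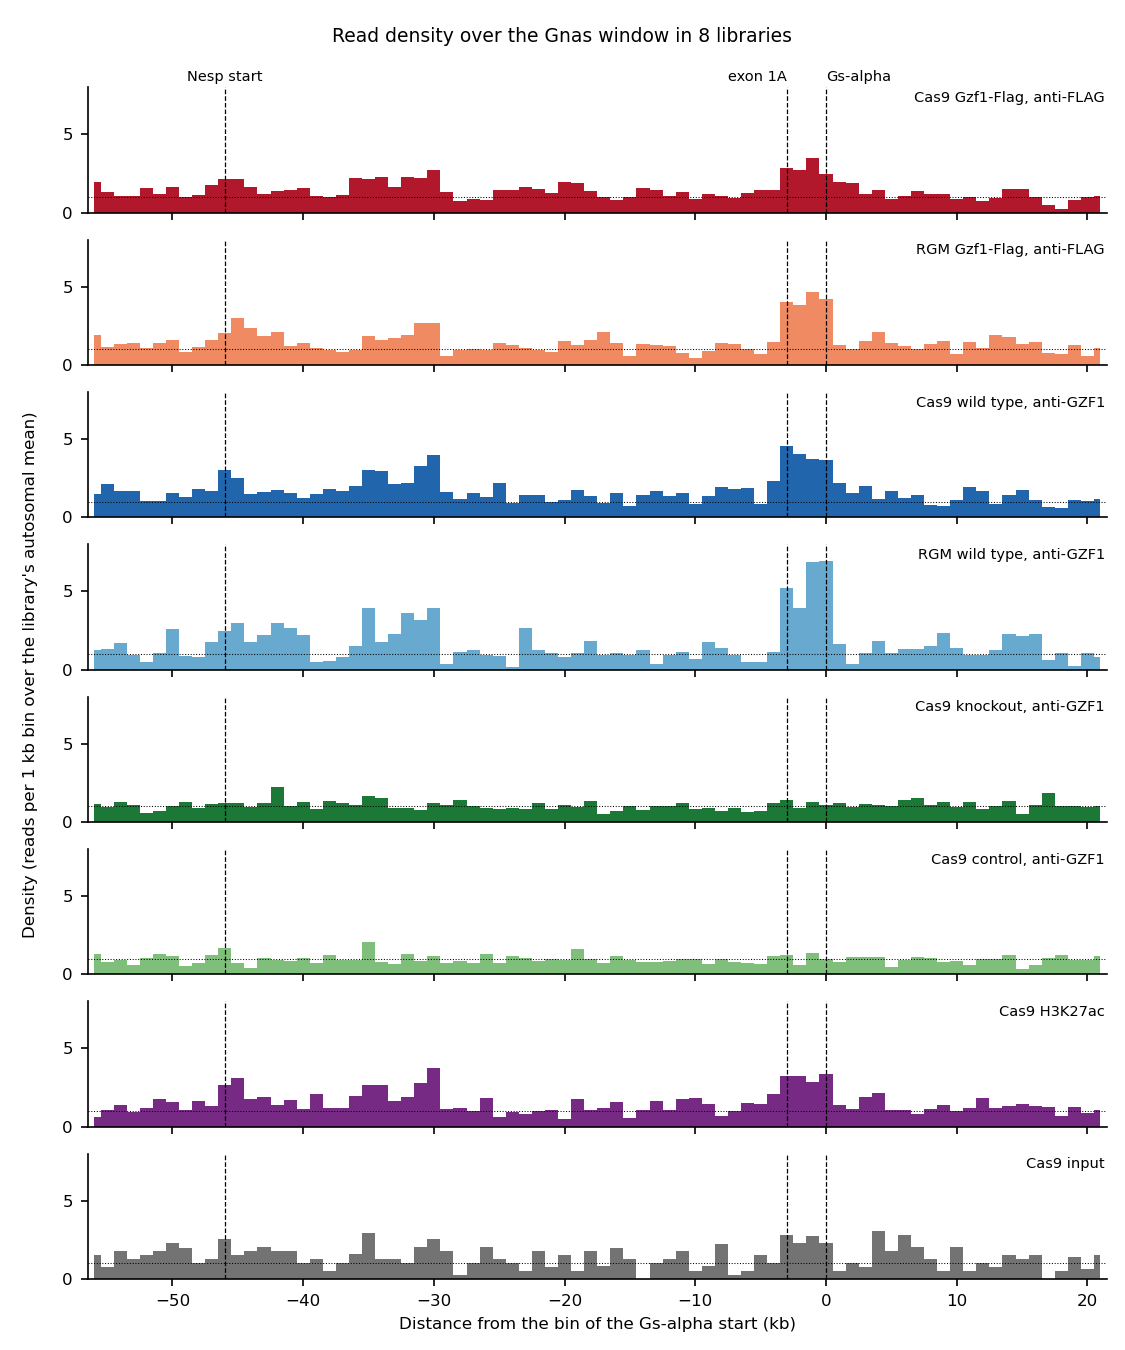
Density of reads per 1 kb bin (vertical axis, 1 is the library's autosomal mean, dotted line) over the Gnas window in 8 libraries, against distance in kb from the bin of the Gs-alpha start; dashed lines mark the Nesp, exon 1A and Gs-alpha starts. The block between exon 1A and Gs-alpha averages 2.55 to 5.75 in the anti-FLAG, wild-type anti-GZF1, H3K27ac and input libraries, and 1.17 and 1.04 in the knockout and the control.

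Within the stretch, the bin at chr2:174329001-174330000, which holds the bases just upstream of Gs-alpha, was the sole member bin raised with anti-FLAG in both lines. That call was lost with a pseudocount of 1 or with 5 background bins on each side, which gave 0 such bins each, and 7 member bins passed at 1.5-fold. Its log2 values, selected as the highest in Gnas by the lower of the pair, were 1.16 in Cas9 anti-FLAG and 1.51 in RGM anti-FLAG, from 94.9 and 124 reads. It had 0.99 in the Cas9 and 2.01 in the RGM wild type, 0.21 in the knockout, 0.36 in the control, 0.77 in H3K27ac and 0.79 in the input. Among 2231528 autosomal bins 1058 had a higher lower anti-FLAG value (0.0474%), and 475 of them were among the 26238 promoter bins (1.81%). The bin of the exon 1A start had 0.86 and 1.34 with anti-FLAG and 1.20 and 1.79 in wild-type anti-GZF1, in Cas9 and RGM. It was the Gnas bin with the highest lower wild-type value, which 4388 autosomal bins exceeded (0.197%), as did 2768 of the 26238 promoter bins (10.55%). The Gs-alpha start bin had 0.78 and 1.37 with anti-FLAG, 0.98 and 1.99 in wild type, 0.03 in the knockout, 0.02 in the control, 1.02 in H3K27ac and 0.56 in the input.

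The Nesp start, at the other end of Gnas and overlapped by Nespas, was not raised in any library. Its 1 kb bin had log2 values of 0.52 and 0.44 with anti-FLAG and 0.71 and 0.63 in the wild types, in Cas9 and RGM. The knockout had 0.11, the control 0.62, H3K27ac 0.74 and the input 0.59. The anti-FLAG values thus lay below the input value, and the knockout to control ratio of densities was 0.73 (0.479 to 1.10), an interval that held 1.

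The Nespas window shared the moderate upstream signal of Gnas. The stretch read here (chr2:174295001-174301000, limits set after the profile was seen) starts at the bin of the right end of Nespas, where the antisense RNA starts. It runs to the bin with the highest H3K27ac value of the window. Nespas ends at chr2:174295436, so every later bin of the stretch lies outside Nespas and inside Gnas. Signal in those bins cannot be assigned to Nespas. The density of the stretch was 2.21 (1.99 to 2.45) in Cas9 anti-FLAG and 2.07 (1.85 to 2.30) in RGM anti-FLAG. Wild-type anti-GZF1 had 2.92 (2.65 to 3.22) in Cas9 and 3.12 (2.65 to 3.64) in RGM, and the knockout and the control had 1.16 (1.01 to 1.32) and 1.15 (1.01 to 1.31). H3K27ac had 2.57 (2.26 to 2.91) and the input 1.85 (1.35 to 2.49). Over input both wild types had intervals above 1, at 1.58 (1.14 to 2.18) in Cas9 and 1.68 (1.19 to 2.39) in RGM, whereas both anti-FLAG intervals held 1, at 1.19 (0.864 to 1.66) in Cas9 and 1.12 (0.806 to 1.55) in RGM. Its end bin at chr2:174300001-174301000 was raised in both wild types (1.11 in Cas9, 1.37 in RGM) and in H3K27ac (1.33), but not with anti-FLAG (0.71 and 0.99), nor in the knockout (0.11), the control (0.23) or the input (0.78). Between the lines the intervals held 1: the RGM to Cas9 ratio was 0.934 (0.802 to 1.09) for anti-FLAG and 1.07 (0.884 to 1.28) for wild type.

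Nnat had the highest window density of the 5 genes in 5 of the 8 libraries, but its own start was raised in Cas9 anti-FLAG alone. The window density was 2.23 (2.07 to 2.39) in Cas9 anti-FLAG, 2.04 (1.89 to 2.19) in RGM anti-FLAG, 2.47 (2.29 to 2.65) in Cas9 wild type and 2.76 (2.46 to 3.08) in RGM wild type. The knockout had 0.876 (0.790 to 0.969), the control 1.08 (0.984 to 1.18), H3K27ac 2.13 (1.94 to 2.34) and the input 2.08 (1.70 to 2.52). At the Nnat start bin, Cas9 anti-FLAG had 113 reads and a log2 value of 1.01, just over the threshold, and RGM anti-FLAG had 69.7 reads and 0.50. The RGM to Cas9 ratio of densities was 0.633 (0.466 to 0.865). Wild-type anti-GZF1 had 0.27 from 57.8 reads in Cas9 and 0.91 from 33 reads in RGM. H3K27ac had 0.73 and the input 0.34.

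The strongest wild-type anti-GZF1 bin of the Nnat window lay instead at the start of the host gene Blcap (chr2:157566001-157567000). Its log2 value was 1.24 in Cas9 wild type, at a density of 5.28 (4.39 to 6.29), and 1.86 in RGM wild type, at 7.83 (6.08 to 9.94). With anti-FLAG it was not raised: clone 35 had 0.65 and clone 56 had 0.86. The knockout had 0.48, the control 0.44, H3K27ac 0.74 and the input 0.37. The Nnat start bin had wild-type densities of 2.45 (1.86 to 3.17) in Cas9 and 3.83 (2.64 to 5.38) in RGM. Because the Blcap bin was selected as the wild-type maximum of the window, intervals cannot test its height over the Nnat start bin.

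**Figure D2:**
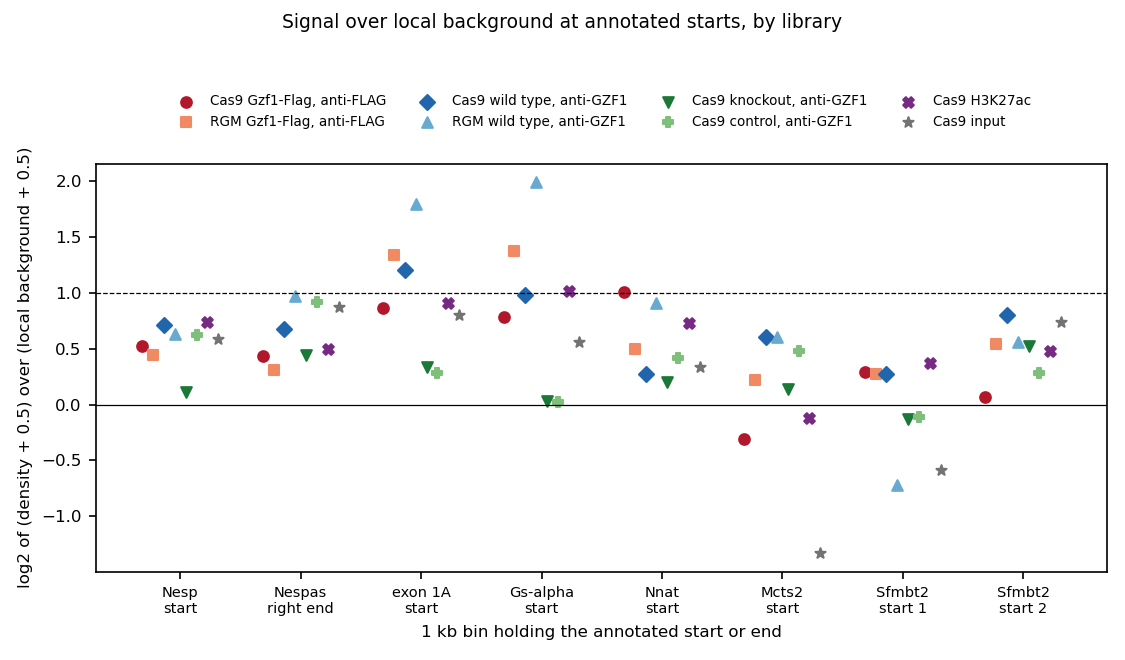
log2 of density over local background, each with 0.5 added (vertical axis), in the 1 kb bin of each annotated start, or of the right end of Nespas, for 8 libraries; the dashed line is the threshold of 1. The exon 1A and Gs-alpha bins reach 1.79 and 1.99 in RGM wild-type anti-GZF1, while the Mcts2 and Sfmbt2 bins stay below 1 in every library.

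The Mcts2 start was not raised in any library. Its bin held 36.2 reads in Cas9 anti-FLAG, 63 in RGM anti-FLAG, 72 in Cas9 wild type and 29 in RGM wild type, which gave log2 values of −0.31, 0.22, 0.60 and 0.60. The knockout had 30.3 reads (0.14), the control 56 (0.48), H3K27ac 28.8 (−0.12) and the input 1 read (−1.33), so no ratio to input can be read there. No bin of the Mcts2 window was raised in an immunoprecipitation. The start of H13, its host gene, lies outside the window and had 1.05 and 0.97 with anti-FLAG and 1.68 and 1.79 in wild-type anti-GZF1, in Cas9 and RGM, beside 0.85 in the knockout, 0.62 in the control, 1.25 in H3K27ac and 1.46 in the input. Over the whole window Mcts2 had densities of 1.83 (1.68 to 1.99) and 2.04 (1.88 to 2.21) with anti-FLAG and 2.03 (1.86 to 2.21) and 2.23 (1.94 to 2.55) in wild type, in Cas9 and RGM, against 1.67 (1.31 to 2.10) in the input.

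Set against promoters of like CpG count, the exon 1A and Gs-alpha starts lay between the 16.1 and 87.6 percentiles in every library, while the Mcts2, Nesp and second Sfmbt2 starts stood below the middle of their class with both antibodies in both lines. Promoters rich in CpG stood above poor ones in every library: at 2858 promoter bins with 31 or more CpG dinucleotides the median log2 value was 0.78 in Cas9 anti-FLAG, 1.13 in RGM anti-FLAG, 1.15 in Cas9 wild type, 1.76 in RGM wild type, 0.34 in the knockout, 0.37 in the control, 1.06 in H3K27ac and 0.84 in the input. At 11480 bins with 0 to 5 the medians were 0 to 0.10. In the knockout and the control the class with 16 to 30 was higher still, at 0.48 and 0.49. Each percentile is that of the 1 kb bin of the start, while the class is set by the 300 bp promoter. Most of the Gs-alpha promoter (chr2:174329756-174330055) lies in the bin before its start bin, as does most of the Nnat promoter (chr2:157559828-157560127). The Gs-alpha start bin stood at the 49.9 and 76.1 percentiles of the class with 31 or more with anti-FLAG and at 31.4 and 68.8 in wild type, in Cas9 and RGM, and at 46.1 in H3K27ac. Exon 1A stood at 70.9 and 87.6 with anti-FLAG and at 76.1 and 77.9 in wild type, among 5684 bins with 16 to 30. Mcts2, in the same class, stood at 0.457 and 3.75 with anti-FLAG, 16.6 and 8.74 in wild type, 15.2 in the knockout, 49.8 in the control, 1.20 in H3K27ac and 0.985 in the input. The second Sfmbt2 start, also in that class, stood at 3.18 and 14.9 with anti-FLAG and 33.3 and 7.74 in wild type, and Nesp at 26.7 and 9.96 with anti-FLAG and 24.9 and 9.82 in wild type, in Cas9 and RGM. Nnat stood at 86.4 in Cas9 anti-FLAG and 12.5 in RGM anti-FLAG, and at 3.96 and 19.5 in wild type.

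**Figure D3:**
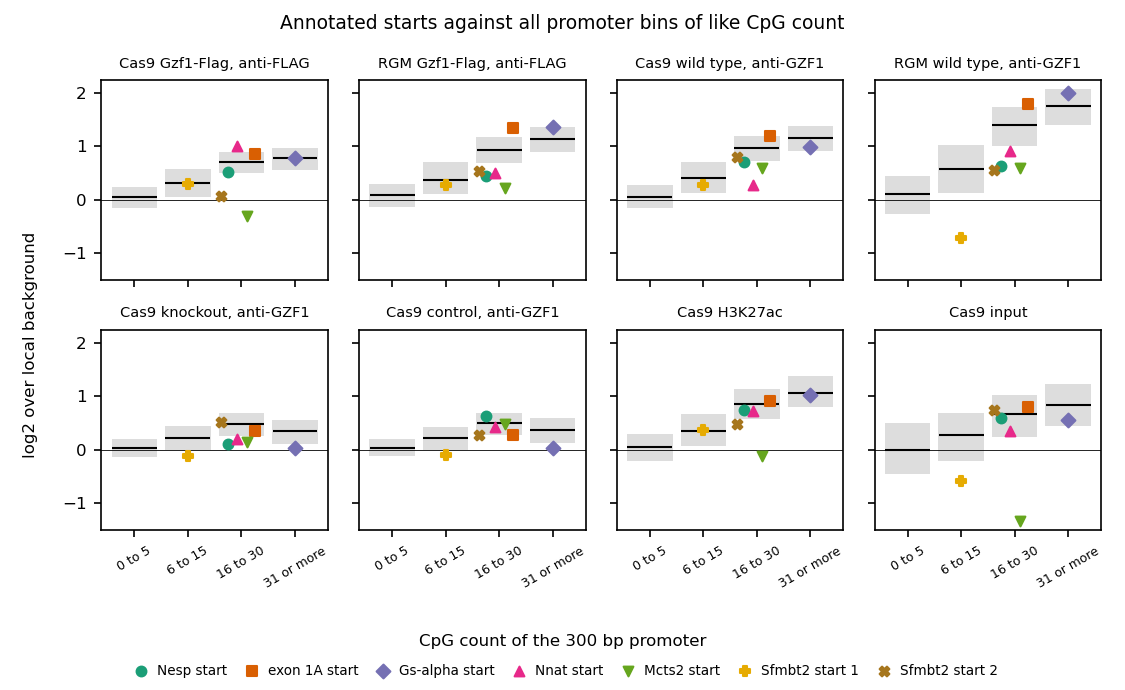
log2 over local background (vertical axis) of promoter bins grouped by the CpG count of the 300 bp promoter, 1 panel per library; black lines are medians, grey boxes span the 25th to 75th percentiles, and symbols the annotated starts of the members. Mcts2 lies under the box of its class in every library but the control, and the class medians of 31 or more CpG dinucleotides run from 0.34 in the knockout to 1.76 in RGM wild type.

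Sfmbt2 had no start that was raised. The first start bin had log2 values of 0.29 and 0.27 with anti-FLAG and 0.27 and −0.72 in wild-type anti-GZF1, in Cas9 and RGM, the last from 6 reads. The second start bin had 0.07 and 0.54 with anti-FLAG, 0.80 and 0.56 in wild type, 0.52 in the knockout, 0.28 in the control, 0.48 in H3K27ac and 0.74 in the input. The window density was 0.764 (0.743 to 0.786) in Cas9 anti-FLAG, 1.04 (1.02 to 1.07) in RGM anti-FLAG, 0.691 (0.670 to 0.714) in Cas9 wild type and 0.967 (0.925 to 1.01) in RGM wild type. The knockout had 0.981 (0.959 to 1.00), the control 0.910 (0.890 to 0.931), H3K27ac 0.719 (0.692 to 0.747) and the input 0.703 (0.650 to 0.759). Sfmbt2 was the member with the lowest density in each library but the knockout, where Mcts2 and Nnat were lower.

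The lowest stretch of Sfmbt2 was its microRNA cluster. The gene table lists 72 microRNA genes inside Sfmbt2, 29 named Mir669, 23 Mir466, 14 Mir467 and 5 Mir297 among them, over 53 bins (chr2:10466001-10519000). Density there was 0.345 (0.315 to 0.376) in Cas9 anti-FLAG, 0.490 (0.454 to 0.528) in RGM anti-FLAG, 0.287 (0.258 to 0.319) in Cas9 wild type, 0.424 (0.367 to 0.488) in RGM wild type, 0.365 (0.325 to 0.408) in H3K27ac and 0.269 (0.203 to 0.350) in the input. The knockout had 0.880 (0.836 to 0.925) and the control 0.935 (0.892 to 0.979). Bins below a density of 0.25 numbered 20 to 34 of 53 in those 6 libraries and 0 in the knockout and the control. Outside the cluster the density was 0.886 (0.860 to 0.913) and 1.20 (1.17 to 1.23) with anti-FLAG and 0.809 (0.782 to 0.836) and 1.12 (1.07 to 1.18) in wild type, in Cas9 and RGM, 1.01 (0.985 to 1.04) in the knockout, 0.903 (0.880 to 0.926) in the control, 0.822 (0.789 to 0.855) in H3K27ac and 0.829 (0.763 to 0.898) in the input. The microRNA genes are close copies of each other, and filters on mapping quality are not given in the sources used here.

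The same split occurred outside the cluster. In 27 bins of the Sfmbt2 window the mean of the 6 libraries was under 0.25 while the mean of the knockout and the control was 0.5 or more: 20 lay in the cluster, 104 to 133 kb from the first start, and 7 lay 178 to 184 kb from it. Of all autosomal bins 124039 (5.04%) had this pattern, and 0 of the 100 bins of the other members did. Its part in other Sfmbt2 ratios to the control was examined by leaving the cluster out and not otherwise tested.

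**Figure D4:**
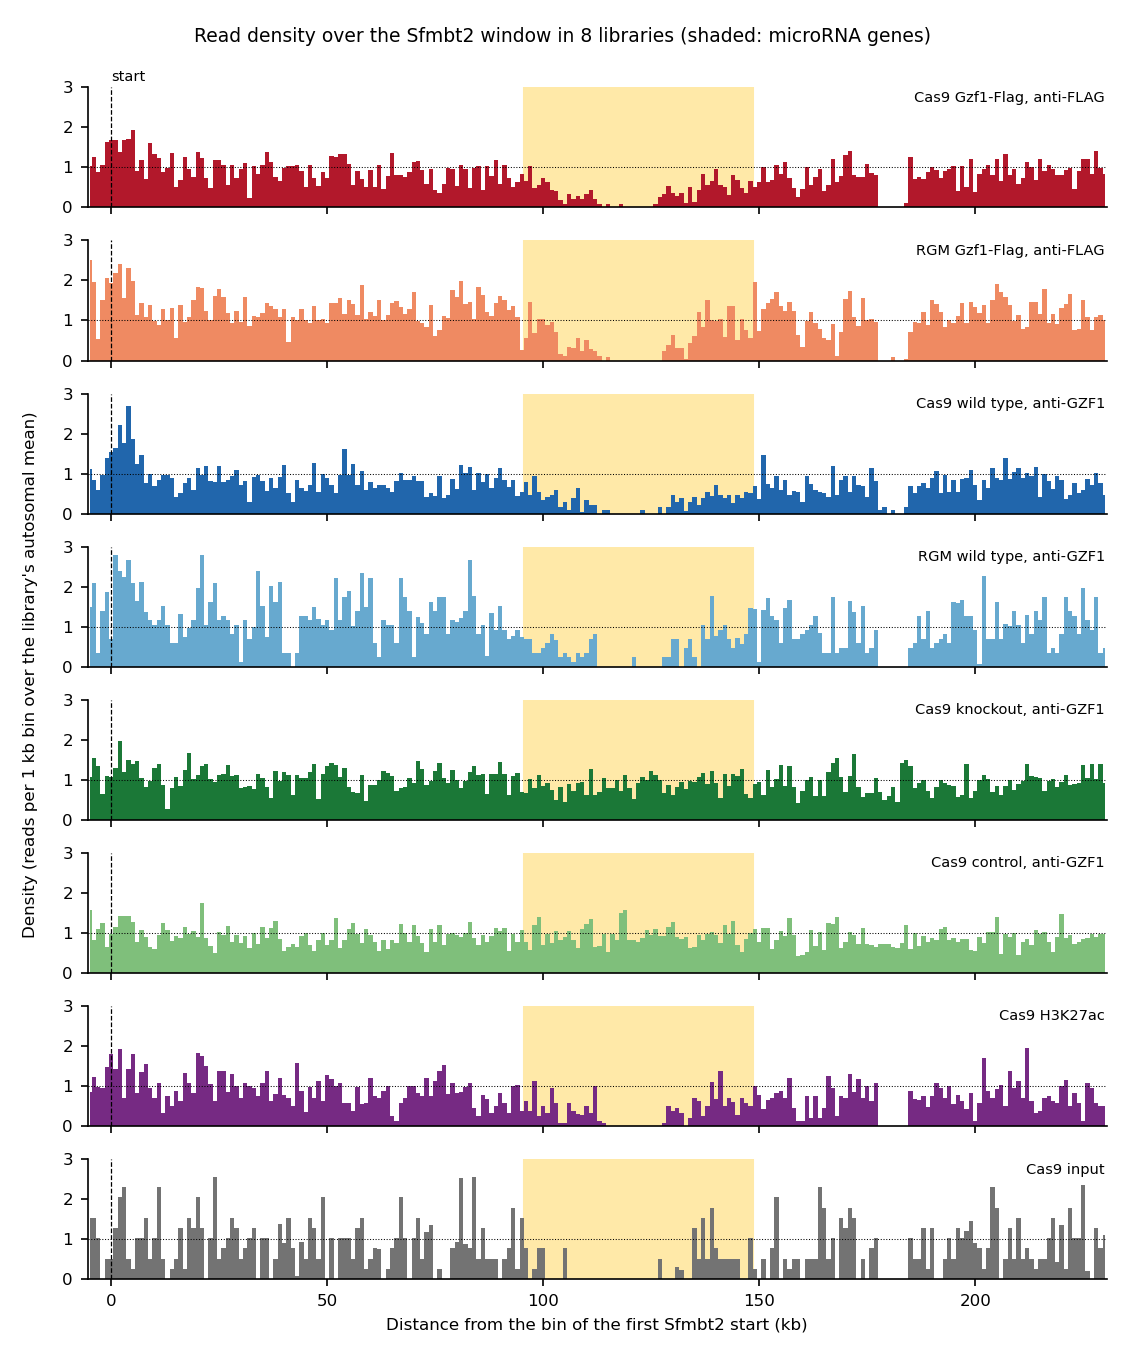
Density of reads per 1 kb bin (vertical axis, 1 is the library's autosomal mean, dotted line) over the Sfmbt2 window in 8 libraries, against distance in kb from the bin of the first start (dashed line), with the 53 bins of the microRNA genes shaded. The shaded bins average 0.269 to 0.490 in 6 libraries and 0.880 and 0.935 in the knockout and the control, and a second gap lies 178 to 184 kb from the start.

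The knockout was set against the Cas9 control with the same antibody to ask whether anti-GZF1 signal over the members falls without GZF1. The control had 0 raised member bins. Its window densities were 0.960 for Gnas, 1.00 for Nespas, 1.08 for Nnat and 1.17 for Mcts2, against 1.40, 1.64, 2.08 and 1.67 in the input. For Sfmbt2 it had 0.910, against 0.703. With no raised signal in the control, the ratios compare 2 libraries and cannot show a loss of GZF1. No member window passed 2-fold in either direction, where 0.00218% of 45895 gene windows did each way. The knockout to control ratio was 1.12 (1.06 to 1.19) for Gnas, 1.15 (1.04 to 1.26) for Nespas, 0.814 (0.709 to 0.931) for Nnat, 0.719 (0.619 to 0.833) for Mcts2 and 1.08 (1.04 to 1.11) for Sfmbt2. The surrounding 1 Mb had 1.05 for Gnas, 1.05 for Nespas, 0.738 for Nnat, 0.756 for Mcts2 and 1.05 for Sfmbt2, so the low ratios of Nnat and Mcts2 were shared with their surroundings. Relative to the surrounding 1 Mb the ratios were 1.07 (1.01 to 1.13) for Gnas, 1.09 (0.993 to 1.20) for Nespas, 1.10 (0.961 to 1.26) for Nnat, 0.951 (0.820 to 1.10) for Mcts2 and 1.03 (0.995 to 1.06) for Sfmbt2. Counting error thus left intervals that hold 1 for 4 of the 5 genes, and the Gnas interval lay just above 1.

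At the Gnas stretch that was high in the wild types, the knockout to control ratio was 1.12 (0.890 to 1.42), with 154 reads in the knockout and 149 in the control. The control itself was not raised there, so this ratio cannot show a loss. Among the bins with 20 or more reads in both together, 3 of 295 member bins had a ratio of 0.5 or less (2.86% of all such autosomal bins) and 10 had 2 or more (2.48%). All 3 low bins were in Sfmbt2. The lowest, the selected minimum at chr2:10383001-10384000, had 9.15 reads in the knockout and 38 in the control, a ratio of 0.262 (0.109 to 0.541) that 1736 autosomal bins matched or undercut (0.0778%). The other libraries were not raised in that bin: log2 values ran from −0.31 to 0.05 in the anti-FLAG, wild-type and H3K27ac libraries. The highest Gnas bin, the selected maximum at chr2:174288001-174289000, had 72.7 reads in the knockout and 33.1 in the control, a ratio of 2.39 (1.57 to 3.74).

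The Cas9 library labelled wild type was also set against the Cas9 control, the same library that serves the knockout comparison. The wild type to control ratio was 1.79 (1.69 to 1.89) for Gnas, 1.98 (1.81 to 2.16) for Nespas, 2.29 (2.04 to 2.57) for Nnat, 1.74 (1.54 to 1.98) for Mcts2 and 0.760 (0.731 to 0.790) for Sfmbt2. Nnat was thus the sole window past 2-fold upward, where 2.08% of gene windows were, and none passed it downward, where 4.52% did. The median of all gene windows was 1.13. Relative to the surrounding 1 Mb the ratios were 1.20 (1.14 to 1.26) for Gnas, 1.32 (1.20 to 1.44) for Nespas, 1.39 (1.24 to 1.55) for Nnat, 1.01 (0.894 to 1.15) for Mcts2 and 0.773 (0.743 to 0.804) for Sfmbt2. Without the microRNA cluster the Sfmbt2 ratio was 0.895 (0.858 to 0.934), and in the cluster alone it was 0.307 (0.274 to 0.344). At the Gnas stretch it was 3.83 (3.17 to 4.67), or 2.55 (2.11 to 3.11) relative to the 1 Mb. The control had a density of 1.04 there and the input 2.55, and wild type over input was 1.57 (1.13 to 2.23). The ratio of the 1 Mb does not remove a difference between libraries at promoters, and the part of the low promoter signal of the control in these ratios was not tested.

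**Figure D5:**
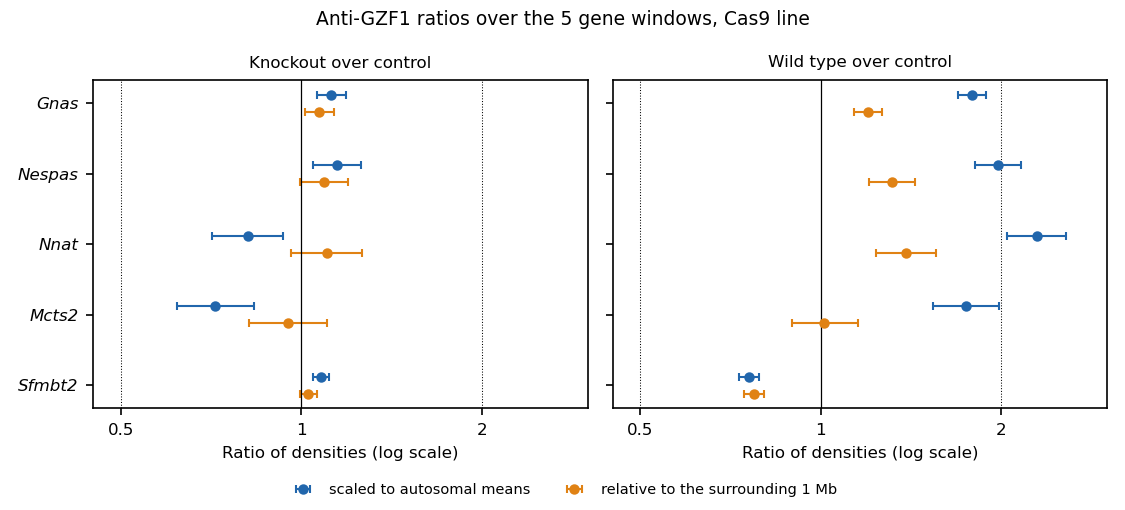
Ratio of anti-GZF1 densities (log axis) over the windows of the 5 genes in the Cas9 line, knockout over control on the left and wild type over control on the right, scaled to autosomal means (blue) or relative to the surrounding 1 Mb (orange); bars are 95% intervals of counting error and dotted lines mark 2-fold. Knockout to control ratios lie between 0.719 and 1.15, wild type to control ratios between 0.760 and 2.29.

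Over input, no member window passed 2-fold with anti-FLAG, wild-type anti-GZF1 or H3K27ac, where 0.774% and 1.11% of gene windows did upward for the anti-FLAG clones, 0.497% and 1.61% for wild type and 0.569% for H3K27ac. Downward the shares were 0.109% and 2.4%, 0.233% and 2.57%, and 0.283%. All these ratios share the 1 input. Gnas had 1.02 (0.919 to 1.14) and 1.07 (0.964 to 1.19) for anti-FLAG and 1.22 (1.10 to 1.36) and 1.21 (1.08 to 1.36) for wild type, in Cas9 and RGM. Nespas had 0.992 (0.840 to 1.18) and 0.991 (0.839 to 1.18) for anti-FLAG and 1.21 (1.02 to 1.43) and 1.21 (1.01 to 1.46) for wild type. Nnat had 1.07 (0.875 to 1.33) and 0.979 (0.799 to 1.22), and Mcts2 1.10 (0.858 to 1.43) and 1.22 (0.957 to 1.59), for anti-FLAG. For wild type Nnat had 1.19 (0.968 to 1.47) in Cas9 and 1.33 (1.06 to 1.67) in RGM, and Mcts2 1.22 (0.951 to 1.58) in Cas9 and 1.34 (1.02 to 1.77) in RGM. The anti-FLAG intervals of these 4 genes held 1, the RGM wild-type intervals of all 4 lay above 1, and the Cas9 wild-type intervals lay above 1 for Gnas and Nespas. Among all 45895 gene windows the median wild type over input ratio was 1.03 in Cas9 and 1.05 in RGM. The 4 genes stood at the 79.1 to 83.4 percentiles of these windows in Cas9 and at 69.65 to 80.8 in RGM. Sfmbt2 differed by line: its anti-FLAG ratio was 1.09 (1.00 to 1.18) in Cas9 and 1.48 (1.37 to 1.61) in RGM, and its wild-type ratio 0.984 (0.905 to 1.07) in Cas9 and 1.38 (1.26 to 1.51) in RGM, both over the Cas9 input.

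In RGM over Cas9 no member window passed 2-fold (0.113% of gene windows did upward and 2.5% downward for anti-FLAG, 0.214% and 1.99% for wild type). Sfmbt2 had the highest ratios of the 5, 1.36 (1.31 to 1.41) for anti-FLAG and 1.40 (1.32 to 1.48) for wild type. Its surrounding 1 Mb was higher in RGM too, at 1.23 and 1.19, which left 1.11 (1.07 to 1.15) and 1.18 (1.11 to 1.24) relative to it. Nnat was the sole member below its surroundings in RGM with an interval under 1, at 0.853 (0.769 to 0.945) for anti-FLAG, and its wild-type ratio was 1.12 (0.979 to 1.28).

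The same values were computed for 37 other imprinted genes. The members had a median knockout to control ratio of 1.08, and the 37 had 0.987, with Meg3, a maternally expressed noncoding RNA, lowest at 0.663 and Cdkn1c, a cell cycle inhibitor, highest at 1.24. For wild type over control the members had a median of 1.79, and the 37 had 1.14, from 0.649 (Rian) to 2.28 (Blcap, whose gene lies in the Nnat window). Of 295 member bins 1 was raised in both anti-FLAG libraries (0.339%) and 4 in both wild types (1.36%), where 6 (0.27%) and 23 (1.03%) of 2226 bins of the 37 were. The 37 include H13 and Blcap, whose windows contain those of Mcts2 and Nnat, so the bins of Mcts2 and Nnat count on both sides. These are counts in single libraries and the difference was not tested.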

How the data were processed

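One deposited matrix of 1 kb bins with 8 libraries was used, and 4 of the 12 libraries were not analysed here. Its values are estimated counts (expected counts) of reads per bin that the authors deposited without scaling to depth: 100% of them were multiples of 0.05. The genome build is mm10 and the tools named are Bowtie2 2.5.4, cutadapt, SAMtools and deepTools, per the submitters' processing notes, with no order or role given there. Duplicate and mapping-quality filters are not given in the sources used here.

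Reads per bin were expressed as density, relative to the library's own mean across 2462755 autosomal bins, which removes depth (10.1 M to 94.2 M reads). Local background was the median of 10 bins on each side, with a pseudocount of 0.5 on both. Bins with a mean density under 0.25, or a local background under 0.25 in any library, were left out of raised-bin counts, which kept 2231528 autosomal bins. Window ratios used summed reads, with exact binomial (Clopper-Pearson) 95% intervals on reads rounded to whole numbers, and densities used exact Poisson intervals. Both describe counting error alone, since reads without molecular identifiers are not separate molecules. Limits for 0 reads used 3 reads. Surroundings were 500 kb on each side. Gene bodies came from RefSeq on GRCm38.p6, where Nespas is listed as Gnasas1, and promoter starts were named by their order along Gnas.

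Besides the 5 members, the bins holding annotated starts and ends were named, and per member the bins with selected maxima or minima. The members and lists were chosen with earlier results of these data known. The rules were run on simulated Poisson counts around the local background, which have no spread beyond counting error. That run does not bear on mapping gaps or on differences between libraries. Alternatives were pseudocounts of 0.25 and 1, 5 and 25 background bins, 1.5-fold and 4-fold thresholds, no filter, no flanks, 10 kb flanks, scaling to the autosomal median or the mean of chromosome 2, bins with an input density of 0.25 to 3, and Sfmbt2 without its microRNA cluster, the last chosen after seeing the data. Python 3.11.15, numpy 2.4.6, pandas 2.3.3, scipy 1.17.1 and matplotlib 3.10.9 were used.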

Additional observations from a re-analysis of the deposited data

How the results depend on the processing

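No paired analysis was possible because each group has 1 library. The single bin raised in both anti-FLAG libraries was not raised with a pseudocount of 1, a local background of 5 bins or a threshold of 2 on the log2 scale, each giving 0 bins, and a 1.5-fold threshold gave 7. Bins raised in both wild-type anti-GZF1 libraries, 4 as reported, numbered 2 with a pseudocount of 1, 1 with 5 background bins, 7 with 25, 13 at 1.5-fold and 0 at the log2 threshold of 2. H3K27ac, 3 as reported, gave 8 with a pseudocount of 0.25, 1 with a pseudocount of 1, 1 with 5 background bins, 5 with 25, 23 at 1.5-fold and 0 at the threshold of 2. The knockout gave 5 bins and the control 7 at 1.5-fold, and the control 1 with a pseudocount of 0.25. Without flanks 1 member passed 2-fold over input in each of the 5 immunoprecipitations, Mcts2, whose gene body is 1 bin with 1 input read. Scaling to the autosomal median put 2 members past 2-fold in wild type over control. Of 45 window ratios 2 crossed 1 without flanks, 2 with the input limits, 11 with the median and 5 with the chromosome 2 mean. Knockout to control ratios did not cross 1 under any of these alternatives and ran from 1.12 to 1.16 for Gnas, 1.15 to 1.24 for Nespas, 0.783 to 0.838 for Nnat, 0.588 to 0.740 for Mcts2 and 1.08 to 1.12 for Sfmbt2. Without the microRNA cluster, an alternative chosen after seeing the data, wild type over control was 0.895 for Sfmbt2, against 0.760 with it. The cause of these shifts was not tested. The 10.1 M reads of the input limit every ratio to it.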
